A study of Mus musculus with 4 samples.

Results

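The 10 genes described here encode proteins of megakaryocytes and platelets: Pf4, Ppbp, Gp9, Gp1bb, Vwf, Clec1b, Treml1, Plek, Cavin2 and Rab27b. They were chosen by symbol, and each symbol matched 1 of the 32285 genes counted. Transcripts and bound antibodies were counted together in single cells from mouse bone marrow, sorted as CD45.2+Kit+ and taken 10 weeks post-transplantation. Kit marks blood progenitors, and the CD45.2 allele is commonly used to mark the cells of the donor. There was 1 library for each of 4 groups: a control, then Mll3SI and Mll4SI, and lastly Mll3/4SI. The sources used here do not spell out SI, a strain, a sex, the number of animals pooled or what the hashtag antibodies marked. MLL3 and MLL4 are the histone methyltransferases encoded by Kmt2c and Kmt2d.

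Megakaryocytes are the large marrow cells that shed platelets, and they arise from stem and progenitor cells that already carry some of their transcripts. Their genes fall into granule cargo (the chemokines Pf4 and Ppbp, and the adhesive ligand Vwf), surface receptors (Gp9 and Gp1bb, which are subunits of the receptor that binds Vwf, and Clec1b and Treml1), and proteins of signalling, membranes and secretion (Plek, Cavin2 and Rab27b). GATA1, the ETS factor FLI1 and RUNX1 are transcription factors long known to act on such genes.

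Promoters of 4 of the genes are printed, those of Pf4, Clec1b, Gp9 and Treml1. In a group of cells found almost only in Mll3/4SI, Pf4 transcripts were counted in 40.9% and Clec1b transcripts in 7.78% of cells. Those of Treml1 and Gp9 were counted in 4.04% and 1.95%. Plek (96.4%) and Cavin2 (16.3%) were found in more of those cells than Clec1b and are not printed. The 4 were picked, so no link of promoter letters with level can be read from them. The windows of 300 bases, from 250 before to 50 after the start, are from RefSeq on GRCm38.p6, written 5′ to 3′ on the gene's strand, with the letters of 3 motifs on either strand in capitals. The GATA motif was searched as AGATAA, the ETS motif as GGAAG and the RUNX motif as TGTGGT. These are Pf4 at chr5:90772185-90772484, Clec1b at chr6:129397047-129397346, Gp9 at chr6:87777820-87778119 and Treml1 at chr17:48359666-48359965, all on the plus strand.
Pf4: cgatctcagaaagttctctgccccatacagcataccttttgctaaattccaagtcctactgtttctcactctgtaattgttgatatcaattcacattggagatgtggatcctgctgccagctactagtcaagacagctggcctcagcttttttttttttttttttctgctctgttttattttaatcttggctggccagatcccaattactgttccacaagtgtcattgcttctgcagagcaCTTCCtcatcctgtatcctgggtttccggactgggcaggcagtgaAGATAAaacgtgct
Clec1b: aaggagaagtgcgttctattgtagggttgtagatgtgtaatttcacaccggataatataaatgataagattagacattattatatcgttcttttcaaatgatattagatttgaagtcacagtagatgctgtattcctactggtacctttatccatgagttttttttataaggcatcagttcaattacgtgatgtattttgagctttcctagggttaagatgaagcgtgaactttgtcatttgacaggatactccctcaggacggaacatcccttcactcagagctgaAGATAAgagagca
Gp9: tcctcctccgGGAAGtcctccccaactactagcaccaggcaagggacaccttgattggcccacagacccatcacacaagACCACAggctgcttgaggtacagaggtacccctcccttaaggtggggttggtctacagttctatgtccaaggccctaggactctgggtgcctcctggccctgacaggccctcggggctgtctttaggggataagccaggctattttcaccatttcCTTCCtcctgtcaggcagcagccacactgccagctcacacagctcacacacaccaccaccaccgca
Treml1: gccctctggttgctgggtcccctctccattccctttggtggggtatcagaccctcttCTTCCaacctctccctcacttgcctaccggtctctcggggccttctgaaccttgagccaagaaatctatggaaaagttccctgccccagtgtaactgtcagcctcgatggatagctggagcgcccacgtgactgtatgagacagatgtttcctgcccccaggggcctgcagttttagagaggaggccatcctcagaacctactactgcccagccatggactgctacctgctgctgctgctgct
The GATA letters stood in the Pf4 window from base 287 and in the Clec1b window from base 288, after the start in both, and in no other window of the 8 genes that had one. They were in 11.4% of 27025 promoter windows of the same length. ETS letters were in 6 of the 8 windows (Pf4, Ppbp, Gp9, Gp1bb, Treml1 and Cavin2) and in 71.1% of all windows. RUNX letters were in 1 of the 8, that of Gp9 from base 80, and in 16.9% of all. The Plek window held none of the 3, and Vwf and Rab27b had no window. A match of letters is a description of the window and not a measured binding site, and no match says only that these letters are not there.

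In the order control, Mll3SI, Mll4SI, Mll3/4SI, there were 7887, 9370, 11678 and 7524 barcodes of cells, of which 6743, 8023, 10186 and 6755 passed the filters on cells. Their median depth was 16973, 13603, 12800 and 19185 gene UMIs (unique molecular identifiers, which count transcripts). Kmt2c was counted at 129.6, 110.3, 147.4 and 122.9 CPM (UMIs per 1000000 gene UMIs) and Kmt2d at 41.3, 38.0, 35.1 and 33.3 CPM in the same order. The labels do not say whether these transcripts should change, so they check no label. Xist, the RNA of the inactive X chromosome, stood at 0.0315 and 0.194 CPM in control and Mll3SI and at 1148 and 1359.8 CPM in Mll4SI and Mll3/4SI, and Eif2s3y, a gene of the Y chromosome, at 63.3 and 62.0 CPM in control and Mll3SI with 0 UMIs in Mll4SI and Mll3/4SI. By these transcripts the cells of Mll4SI and Mll3/4SI were female and those of control and Mll3SI male, so in every comparison of Mll4SI or Mll3/4SI with control sex and group cannot be told apart. Of the cell barcodes, 127 occurred in more than 1 library. With 1 library per group no test across samples was possible: intervals in brackets are 95% limits of counting error and cover no spread between animals.

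Across the cell classes, the 10 genes were highest in 1 small cluster in control, Mll3SI and Mll4SI, except for Clec1b in Mll3SI, and in Mll3/4SI most of the UMIs of 6 of them lay in a different one. The first, cluster 22, had 6 of 8 megakaryocyte markers that are not among the 10 genes (Tubb1 and Gp6 were at or near 0) and also 6 of 15 markers of stem and multipotent progenitors, so it was left unnamed. It held 97, 144, 81 and 34 cells of control, Mll3SI, Mll4SI and Mll3/4SI, or 1.44% [1.17 to 1.75], 1.79% [1.52 to 2.11], 0.795% [0.632 to 0.987] and 0.503% [0.349 to 0.703] of kept cells. The second, cluster 19, held 668 Mll3/4SI cells (9.89%) [9.19 to 10.6] among its 670, and carried 8 stem cell, 5 megakaryocyte and 5 basophil or mast cell markers, so it has no name either. Its leading genes included Cpa3, a mast cell protease, Fcer1a, a chain of the IgE receptor, and also Pf4 and Plek. A further unnamed cluster, 7, held 1259 Mll3/4SI cells (18.6%) and 17 others, and was led by Cpa3. The 10 genes and all markers were left out of the genes used for clustering, but genes correlated with them may still have shaped it.

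Pf4, an abundant chemokine of platelet granules, had 95.4%, 95.3% and 95.8% of its UMIs in cluster 22 in control, Mll3SI and Mll4SI. In Mll3/4SI 31.2% of its 11468 UMIs were there and 66.2% were in cluster 19. Pf4 (ENSMUSG00000029373) lies at chr5:90772435-90773383 of GRCm38, on the plus strand. Ppbp, a chemokine gene just upstream at chr5:90768518-90770063 on the same strand, had 14 of 14, 24 of 27 and 21 of 23 UMIs in cluster 22 in the first 3 libraries, and in Mll3/4SI it had 7 of 74 there and 64 in cluster 19. Cavin2, a protein of caveolar membranes, moved from 86.6%, 87.7% and 90.8% in cluster 22 to 24.0% there and 72.8% in cluster 19. Rab27b, a small GTPase of granule secretion, went from 70.2%, 77.9% and 74.0% to 15.7% and 73.0% in the same way. For these 4 genes cluster 22 was the main source in every library but Mll3/4SI.

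Vwf (chr6:125546774-125686679, plus strand), the ligand that tethers platelets to the vessel wall, kept cluster 22 as its main source in all 4 libraries, with 76.3%, 72.6%, 68.7% and 66.5% of UMIs, and 8.23% in cluster 19 of Mll3/4SI. Treml1, a receptor stored in platelet granules, had 80.2%, 83.5%, 80.4% and 58.4% in cluster 22 and 26.3% in cluster 19. Gp9 was spread wider, with 32.8%, 45.6%, 67.6% and 39.1% in cluster 22 and 14.6% in cluster 19, and Gp1bb had 54.3%, 60.7%, 48.1% and 23.1% with 39.9% in cluster 19. Clec1b, the platelet receptor for podoplanin, and Plek, the protein kinase C substrate pleckstrin, had most of their UMIs outside cluster 22 in every library. Granulocyte-like cells held 71.2%, 73.6%, 61.1% and 27.1% of the Clec1b UMIs and 43.5%, 39.2%, 60.1% and 17.4% of those of Plek. In Mll3/4SI cluster 19 held 64.6% of the Clec1b and 54.5% of the Plek UMIs. The gene model of Clec1b overlaps Clec9a on the same strand and that of Gp1bb overlaps Sept5, so reads of these pairs could have been split in counting.

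**Figure D1:**
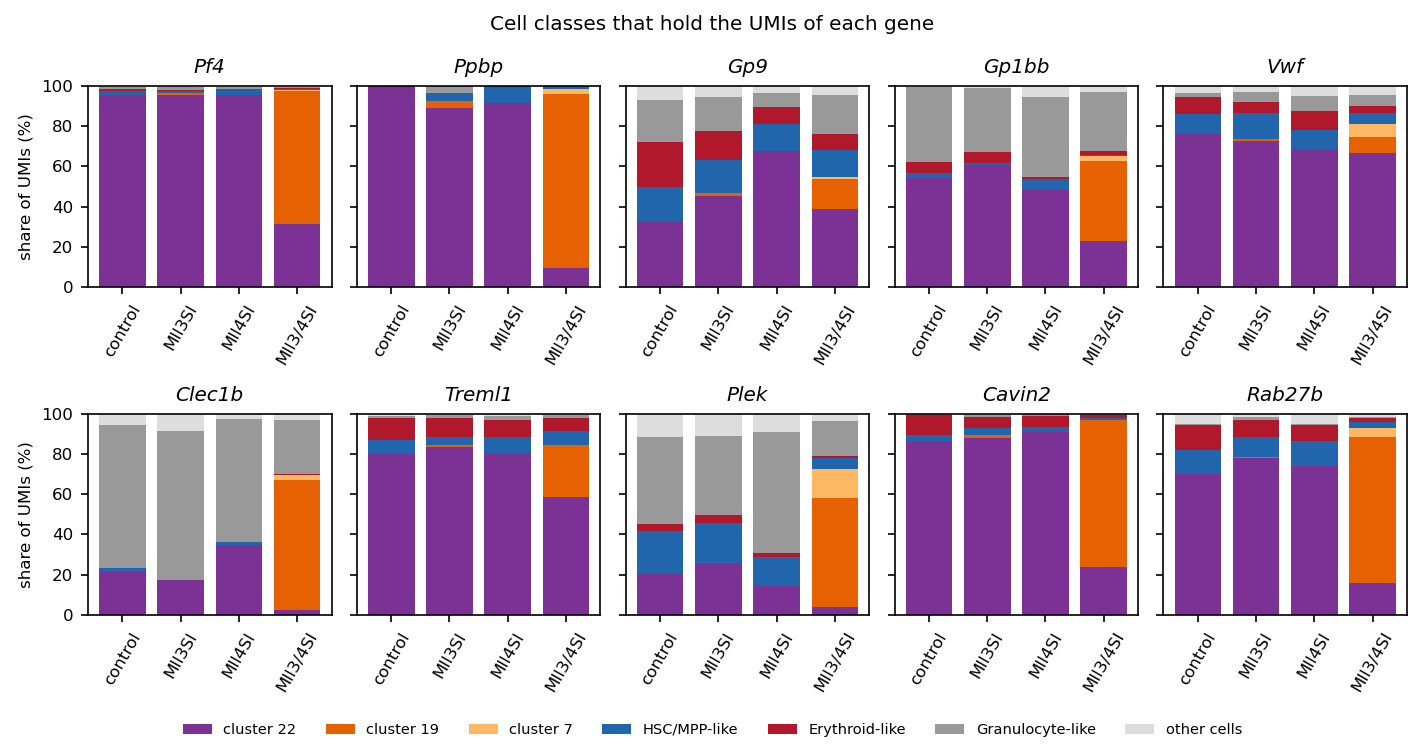
Share of each gene's UMIs (y axis, percent) that came from each cell class, in 1 bar per library. The cluster 22 section fills most of the Pf4, Ppbp, Cavin2 and Rab27b bars in 3 libraries and 31.2%, 9.46%, 24.0% and 15.7% of them in Mll3/4SI, where cluster 19 takes its place.

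Within cluster 22 the level of most of the 10 genes was close between libraries. Pf4 stood at 3299, 3116, 3325 and 4361 CPM in control, Mll3SI, Mll4SI and Mll3/4SI, with a UMI in 87.6%, 86.1%, 85.2% and 76.5% of cells. In granulocyte-like cells, which should lack it, Pf4 was found in 1.48%, 0.894%, 0.771% and 1.67% of cells, at a median depth of 15780, 12520, 11582 and 17879 UMIs against 19267, 16132, 19034 and 23444 in cluster 22. Ppbp was at 6.91, 10.1, 11.7 and 8.53 CPM. Treml1 was at 95.7, 95.3, 85.0 and 97.5 CPM and Cavin2 at 236, 213, 194 and 197 CPM, and the 4 intervals of each gene overlapped. Of the receptor subunits, Gp9 was at 40.0, 53.7, 64.3 and 71.9 CPM and Gp1bb at 37.0, 28.5, 28.5 and 40.2 CPM. The Gp9 ratio to control in Mll3/4SI was 1.80 [1.26 to 2.55]. Plek was at 385, 313, 469 and 441 CPM and Rab27b at 378, 320, 522 and 401 CPM. Levels are counts of 3′ tags and are compared here within a gene only.

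Of the 10 genes in cluster 22, Clec1b was the 1 past a 2-fold difference from control, and only in Mll4SI. Clec1b was at 11.8, 6.71, 46.4 and 8.53 CPM in the 4 libraries, and only the third of these, that of Mll4SI, has an interval [37.0 to 57.6] apart from the others. In Mll3SI it was at 7.71 CPM in dendritic-like cells, from 2 UMIs, and at 13.9 CPM in cluster 23, from 1 UMI, with intervals that include the cluster 22 level. Its Mll4SI to control ratio was 3.92 [2.46 to 6.46], or 1.88 on the scale of log2(CPM + 1) used for all calls, and 37.0% of cells had a UMI against 16.5% in control. Vwf went the other way in Mll4SI, with 135, 126, 68.8 and 128 CPM in the 4 libraries. Its Mll4SI to control ratio was 0.511 [0.409 to 0.634], a log2 ratio of -0.96 that stops short of 2-fold, with a UMI in 37.0% of cells against 74.2%. Cells carrying only Hashtag1 or only Hashtag2 gave Clec1b levels of 17.8 and 52.9 CPM in Mll4SI against 13.2 and 10.1 CPM in control, so the 2-fold call rested on the Hashtag2 cells. Vwf was at 33.9 and 75.1 CPM against 142 and 126 CPM, lower in both.

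The background for these counts was all 12367 genes with a mean of at least 1 CPM over the 4 libraries in cluster 22. In Mll3SI 0 of 10 genes were at least 2-fold higher and 0 at least 2-fold lower, where 2.29% and 2.8% of all genes were. In Mll4SI 1 of 10 was higher and 0 lower, against 3.36% and 4.06% of all genes. In Mll3/4SI, with 34 cells, 0 were higher and 0 lower against 4.29% and 6.67%. The median log2 ratios of the 10 genes were -0.12, 0.15 and 0.10, and those of all genes -0.03, -0.00 and -0.02.

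**Figure D2:**
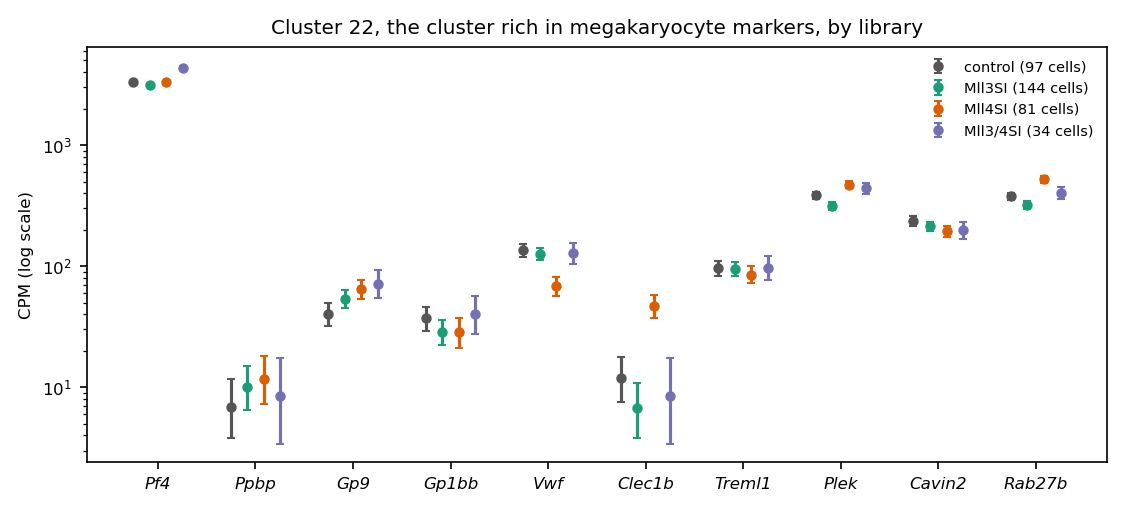
Level of the 10 genes in cluster 22 (log axis, CPM), with 1 point per library and 95% counting intervals. Clec1b lies at 46.4 CPM in Mll4SI above the other 3 libraries, and Vwf at 68.8 CPM below them.

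Mll4SI cells of cluster 22 also differed in Fcer1a, which is no megakaryocyte marker. It was at 4.94, 0.839, 106 and 18.3 CPM in control, Mll3SI, Mll4SI and Mll3/4SI, with a UMI in 7.22%, 1.39%, 61.7% and 11.8% of cells. Cpa3 was at 1.48, 8.39, 17.3 and 12.2 CPM there. These values stand beside the Clec1b and Vwf differences of Mll4SI, and their part in them was not tested.

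Summed over all kept cells, where fewer cells of a type and less RNA per cell cannot be told apart, Plek was the 1 gene past 2-fold on the scale of log2(CPM + 1). For genes of a few CPM the added 1 CPM shrinks the ratio, so plain ratios are given beside the calls. Plek was at 29.9, 23.6, 39.8 and 68.2 CPM in control, Mll3SI, Mll4SI and Mll3/4SI, and the Mll3/4SI ratio to control was 2.28 [2.20 to 2.37]. Pf4 was at 55.2, 63.1, 42.3 and 80.7 CPM, a Mll3/4SI ratio of 1.46 [1.42 to 1.51], and Rab27b at 8.58, 7.92, 8.58 and 14.8 CPM, a ratio of 1.72 [1.60 to 1.85]. Without the cells of clusters 7 and 19, an alternative added after the clusters were seen, both turned to the other side of control: the Pf4 ratio was 0.715 [0.687 to 0.744] and that of Rab27b 0.572 [0.512 to 0.637]. Cavin2 turned as well, to 0.438 [0.369 to 0.518], and Plek stood at 1.04 [0.992 to 1.09]. Nearly all cells left out were of Mll3/4SI, where cluster 19 held most UMIs of these genes. A fall was thus fixed by construction, and the ratios describe the cells that remain. In Hashtag1 cells alone the Pf4 log2 ratio of Mll3/4SI was -0.23, also below control. Clec1b was at 0.875, 0.737, 1.63 and 1.95 CPM, so that Mll4SI had a ratio of 1.86 [1.48 to 2.35] and Mll3/4SI 2.23 [1.78 to 2.80], which became 1.09 [0.817 to 1.45] without the clusters. Vwf, Gp9 and Treml1 were lower than control in both the Mll4SI and the Mll3/4SI libraries. Vwf was at 2.82, 3.34, 1.22 and 1.11 CPM, so that Mll4SI had a ratio to control of 0.432 [0.359 to 0.519] and Mll3/4SI 0.394 [0.325 to 0.476]. Gp9 was at 1.95, 2.28, 1.16 and 1.06 CPM and Treml1 at 1.91, 2.20, 1.29 and 0.964 CPM, though in Hashtag2 cells the Mll4SI log2 ratio of Treml1 was 0.08. Cavin2 was at 4.35, 4.68, 2.60 and 4.76 CPM, Gp1bb at 1.09, 0.907, 0.722 and 1.01 CPM, and Ppbp at most 0.521 CPM.

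Of the 8 genes with a mean of at least 1 CPM in all kept cells, 0 were 2-fold higher and 0 lower in Mll3SI, against 0.26% and 0.325% of 12300 genes. In Mll4SI 0 were higher and 0 lower against 1.11% and 1.28%. In Mll3/4SI 1 (Plek) was higher and 0 were lower against 1.62% and 0.959%. These counts depend on the added 1 CPM: with 0.1 CPM added, 3 of the 10 genes (Plek, Clec1b and Ppbp) were higher and 1 (Vwf) lower in Mll3/4SI. The higher count was 0 in Hashtag1 cells, 4 in Hashtag2 cells and 0 without the cells of clusters 7 and 19. Counts under these alternatives take in all 10 genes, also those under 1 CPM. The share of all genes past 2-fold was not computed for them, so they have no background.

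In HSC/MPP-like cells, the class of stem cells and multipotent progenitors (901, 916, 752 and 331 cells), the 10 genes were low and differed less. Pf4 was at 6.42, 4.31, 9.35 and 9.09 CPM, Vwf at 1.74, 3.23, 1.01 and 1.04 CPM and Gp9 at 2.03, 2.81, 1.37 and 2.30 CPM in control, Mll3SI, Mll4SI and Mll3/4SI. Plek, which is also a gene of other leukocytes, was at 38.8, 34.6, 50.04 and 60.6 CPM and had a Mll3/4SI ratio of 1.56 [1.40 to 1.75]. Rab27b was at 6.13, 5.75, 9.47 and 7.13 CPM, and its Mll4SI ratio to control was 1.54 [1.22 to 1.97]. For Vwf the Mll3SI ratio was 1.86 [1.20 to 2.92], the largest of the 3. The other 5 genes had at most 1.26 CPM in any library. Of the 5 genes tested, 0 were 2-fold higher and 0 lower in Mll3SI, against 0.287% and 0.367% of 12535 genes. The same 0 and 0 held for Mll4SI against 1.55% and 1.18%, and for Mll3/4SI against 0.846% and 0.694%.

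Cluster 19 of Mll3/4SI carried the 10 genes unequally. Against cluster 22 of the same library, Plek stood at 367 CPM [357 to 377], which is 83.2% of its level there [74.8 to 92.8], and Clec1b at 12.4 CPM [10.7 to 14.4], or 146% [69.3 to 368]. Ppbp at 4.45 CPM was 52.1% [23.9 to 135], so the intervals of Clec1b and Ppbp include equal levels. Rab27b at 106 CPM was 26.6% of the cluster 22 level, Cavin2 at 34.2 CPM was 17.3%, Pf4 at 527 CPM was 12.1% [11.6 to 12.6] and Gp1bb at 3.96 CPM was 9.85%. At the low end were Treml1 at 2.50 CPM, which is 2.57% [1.68 to 3.85], Gp9 at 1.53 CPM, 2.13% [1.24 to 3.52], and Vwf at 0.903 CPM, 0.706% [0.364 to 1.26]. The order thus ran from Clec1b and Plek, at or near the cluster 22 level, to Vwf at under 1% of it. Of the 10 genes 7 were at least 2-fold lower than in cluster 22 and 0 at least 2-fold higher, where 7.02% and 10.2% of 12538 genes were. Cluster 22 was picked for its megakaryocyte markers, and Vwf reached the mean of 1 CPM only through it. The count of 7 is therefore a description only.

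Set against HSC/MPP-like cells of the same library, 7 of the 9 genes tested were at least 2-fold higher in cluster 19 and 0 lower, where 4.66% and 4.6% of 12613 genes were. The log2 ratios were 5.71 for Pf4, 4.20 for Cavin2, 3.72 for Rab27b, 3.59 for Clec1b, 2.58 for Plek, 2.29 for Ppbp and 2.15 for Gp1bb. The HSC/MPP-like levels of Clec1b, Ppbp and Gp1bb rest on 1 UMI each, so these genes reached the mean of 1 CPM only through cluster 19. Their calls as higher followed from that filter, and the count of 7 is a description only. Treml1 was at 0.78 on this scale, short of the call, and its plain level was 242% [114 to 570] of that in HSC/MPP-like cells. Gp9 was at -0.38, or 66.4% [34.6 to 128], and Vwf, whose mean was under the 1 CPM needed for the count, at 87.2% [34.5 to 231]. Cluster 7, the other large Mll3/4SI cluster, had Pf4 at 2.12 CPM, Plek at 44.9 CPM and Rab27b at 3.01 CPM, and no UMI of Treml1 or Cavin2. Cluster 19 drew 170 cells from Hashtag1 and 491 from Hashtag2, which is 5.83% and 13.5% of the cells carrying only that tag. Pf4 was at 345 and 608 CPM in them, Clec1b at 8.80 and 14.1 CPM and Vwf at 1.51 and 0.688 CPM, the same order in both.

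Pf4 was unevenly spread over the cells of cluster 19. It had a UMI in 40.9% of the 668 cells [37.1 to 44.7], and in 25.3% after each cell was thinned to 3000 UMIs, and the 10% of cells with the most held 86.0% of its UMIs. Plek, with a UMI in 96.4% of cells, and Rab27b, in 51.8%, were more widely found. Cavin2 was in 16.3%, Clec1b in 7.78%, Gp1bb in 6.59%, Treml1 in 4.04%, Ppbp and Gp9 in 1.95% each and Vwf in 1.35% of cells. For comparison, granulocyte-like cells of that library had a Gp1bb UMI in 1.07%, a Gp9 UMI in 0.758% and a Vwf UMI in 0.235% of cells, and a Clec1b UMI in 1.70%. Clec1b and Pf4 were in the same cells: 51 of the 52 cells with Clec1b also had Pf4, as did 89 of 109 with Cavin2, 9 of 9 with Vwf and 272 of 644 with Plek.

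To compare like with like, cells were grouped by their Pf4 UMIs, in bins chosen after the values were seen. In cluster 19, 395 cells had 0 Pf4 UMIs, 168 had 1 to 9, 83 had 10 to 99 and 22 had 100 or more. Across these bins Clec1b was at 0.114, 3.66, 53.1 and 183 CPM, Plek at 249, 398, 740 and 1114 CPM and Ppbp at 0.114, 1.97, 4.32 and 114 CPM. Vwf was at 0, 0.282, 6.79 and 2.32 CPM, from 0, 1, 11 and 1 UMIs, and so stayed far below cluster 22 in every bin. Gp9 was at 0.341, 0, 4.94 and 25.5 CPM and Treml1 at 0.569, 1.69, 9.88 and 20.9 CPM. In the 12 Mll3/4SI cells of cluster 22 with 100 or more Pf4 UMIs, Vwf was at 201 CPM, Treml1 at 136 CPM, Gp9 at 90.5 CPM and Clec1b at 15.1 CPM. Bins set on Pf4 take part of their pattern from cell depth and from Pf4 itself, so these values are a description.

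**Figure D3:**
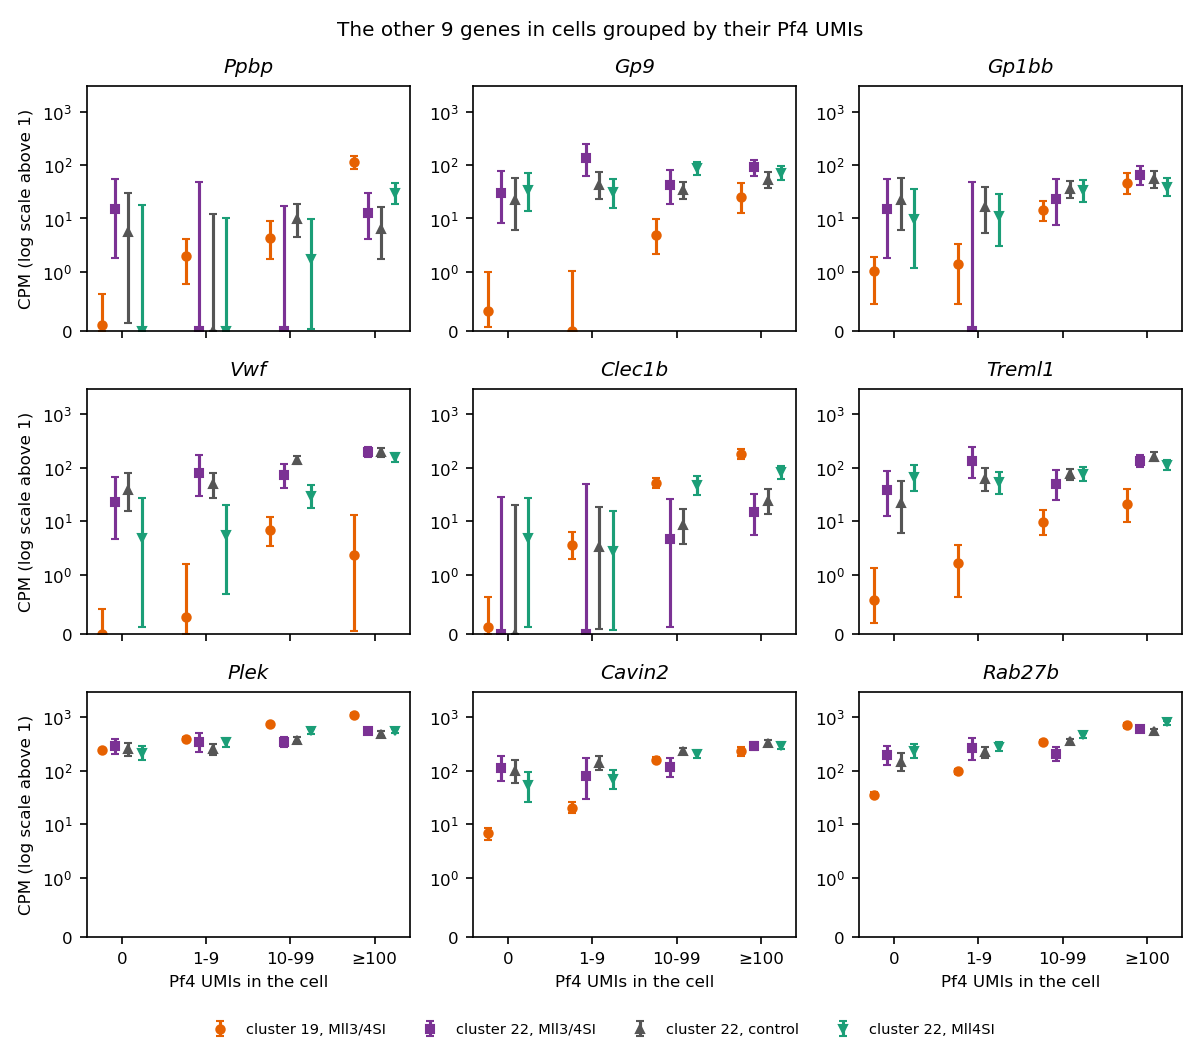
Level of the other 9 genes (y axis, CPM on a scale that is logarithmic above 1) in cells grouped by their Pf4 UMIs (x axis), with 95% counting intervals, for cluster 19 of Mll3/4SI and for cluster 22 of Mll3/4SI, control and Mll4SI. In cluster 19 Clec1b reaches 183 CPM and Plek 1114 CPM in the highest bin, above every cluster 22 point, while Vwf lies at 2.32 CPM below them.

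The 105 cells of cluster 19 with at least 10 Pf4 UMIs were then set against the 22 such cells of cluster 22 in Mll3/4SI, with a median of 17693 and 26099 UMIs per cell. Pf4 itself was at 3463 and 5807 CPM. Clec1b was at 80.5 and 11.4 CPM, a ratio of 7.06 [3.35 to 17.8], Ppbp at 27.3 and 8.14 CPM, 3.35 [1.35 to 10.7], and Plek at 819 and 485 CPM, 1.69 [1.49 to 1.91]. Rab27b, at 426 and 461 CPM, had a ratio of 0.925 whose interval [0.808 to 1.06] includes 1. Vwf was at 5.85 and 156 CPM, a ratio of 0.0374 [0.0187 to 0.0684], Treml1 at 12.2 and 106 CPM, 0.115 [0.0695 to 0.185], and Gp9 at 9.27 and 73.3 CPM, 0.126 [0.0698 to 0.221]. Of the Ppbp UMIs, 49 came from 3 of the 22 cells with 100 or more Pf4 UMIs, and the 83 cells with 10 to 99 were at 4.32 CPM. The genes therefore split into those whose interval reached or passed the level in Pf4-rich cells of cluster 22 (Clec1b, Plek and Rab27b, with Ppbp through those 3 cells) and those far lower (Vwf, Treml1 and Gp9), with Gp1bb at 0.415 and Cavin2 at 0.767 between. Itga2b, which encodes CD41, had a ratio of 0.747. Against the 67 such cells of control cluster 22 the ratio was 0.0359 for Vwf, 0.110 for Treml1, 0.223 for Gp9, 5.39 for Clec1b and 1.92 for Plek. Against the 49 such cells of Mll4SI, Clec1b had a ratio of 1.22 [0.929 to 1.61], which includes 1.

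Markers of basophils and mast cells moved with the Pf4 bins of cluster 19. Cpa3 was at 1302, 1078, 199 and 16.2 CPM from the lowest to the highest bin, Ms4a2, a further chain of the IgE receptor, at 222, 234, 89.5 and 53.4 CPM, and Fcer1a at 430, 519, 425 and 344 CPM. Cells rich in Pf4 were thus low in Cpa3 and kept Fcer1a. Mcpt8, a protease of basophils, was at 2.22 CPM over the whole cluster. In the 12 Pf4-rich cells of cluster 22 of this library Fcer1a was at 7.54 CPM. Doublets were scored and removed, and 7 of the 668 cells carried both hashtags. What part doublets of a Cpa3 cell and a Pf4 cell had in the values above was not tested beyond this.

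The cells with at least 2 UMIs each of Cpa3 and Fcer1a outside basophil/mast-like clusters numbered 7, 10, 58 and 472 in control, Mll3SI, Mll4SI and Mll3/4SI. In Mll3/4SI 324 of them were in cluster 19 and 136 in cluster 7. The 136 had Mcpt8 at 900 CPM, in 44.9% of cells, and Ms4a2 at 754 CPM, in 86.8%. In the 324 these were at 1.57 and 328 CPM. Cells outside the basophil/mast-like clusters were thus not all without basophil transcripts. In Mll4SI 37 were HSC/MPP-like, 17 erythroid-like and 3 in cluster 22. Pf4 had 0 and 1 UMIs in the control and Mll3SI cells, 269 in Mll4SI (204 CPM) and 1249 in Mll3/4SI (108 CPM), and was found in 31.0% [19.5 to 44.5] of the Mll4SI and 29.2% [25.2 to 33.6] of the Mll3/4SI cells. The Mll3/4SI value pools unlike sets: Pf4 was at 160 CPM, in 38.3% of cells, in the 324 of cluster 19, and at 1.90 CPM, in 5.15%, in the 136 of cluster 7. After thinning, the Mll4SI share was 5.17% and the pooled Mll3/4SI share 12.9%, with 17.9% in the cluster 19 and 0% in the cluster 7 cells. In Mll4SI the 10% of cells with the most held 95.2% of the Pf4 UMIs. Gp9 had 11 UMIs in the 58 Mll4SI cells and 7 in the 472 Mll3/4SI cells, or 8.35 and 0.604 CPM, and Treml1 had 10 and 15, or 7.59 and 1.29 CPM. Plek was at 93.3 and 236 CPM, with a UMI in 72.4% and 86.7% of cells, and Rab27b at 42.5 and 54.9 CPM. In the cluster 19 and cluster 7 cells of Mll3/4SI apart, Plek was at 327 and 56.5 CPM and Rab27b at 73.9 and 17.4 CPM. Vwf had 1, 1, 1 and 2 UMIs in the 4 libraries. Clec1b had 0, 0, 1 and 17 UMIs and Ppbp 0, 0, 0 and 6. Control and Mll3SI had too few such cells for a ratio. Basophil/mast-like cells themselves had Pf4 at 4.36, 3.69, 2.15 and 38.1 CPM, the last from 34 UMIs in 5 of 48 cells.

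Surface protein was read with the CD41 antibody, which did not enter the choice of genes or clusters, as a log2 ratio centred on the 13 surface antibodies of a cell. Median CD41 in cells with 0, 1, 2 and at least 3 of the 10 genes detected after thinning was -2.73, -2.69, 0.63 and 3.19 for control. The same groups gave -3.03, -2.78, 1.05 and 3.16 for Mll3SI, -2.88, -2.87, 1.49 and 3.89 for Mll4SI, and -1.70, -0.01, 3.68 and 5.15 for Mll3/4SI. CD41 thus was higher in cells with 2 or more of the genes in each library. In cluster 22 the median was 2.86, 2.53, 3.65 and 3.42, and in cluster 19 it was 3.64, against 0.05 in HSC/MPP-like cells of Mll3/4SI and 1.63 in cluster 7. CD150, a protein of stem cells and early megakaryocyte progenitors, was at 2.25, 1.99, 1.95 and 2.14 in cluster 22 and at -0.66 in cluster 19.

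Within cluster 19 both proteins were higher in cells with more Pf4 UMIs. From the lowest to the highest Pf4 bin the median of CD41 was 3.101, 3.89, 5.23 and 5.59, and that of CD150 was -1.54, -0.11, 0.98 and 2.49. In cluster 22 of Mll3/4SI CD41 was at 0.78, 2.40, 3.17 and 4.60 over the same bins and CD150 at 2.03, 2.19, 2.16 and 2.11. CD41 was therefore above cluster 22 in every bin, and CD150 came level with it in the cells of 100 or more Pf4 UMIs. Over the same bins of cluster 19 the centred medians of CD48 (5.46, 4.81, 4.15 and 4.10) and of CD117, which is Kit (3.51, 3.38, 2.96 and 2.05), were lower in cells with more Pf4, and lower values of some antibodies raise the centred values of the others. Uncentred, the median antibody UMIs per cell in cluster 19 were 291, 438.5, 1004 and 1281 for CD41 and 10, 26.5, 46 and 139.5 for CD150, in the same order.

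**Figure D4:**
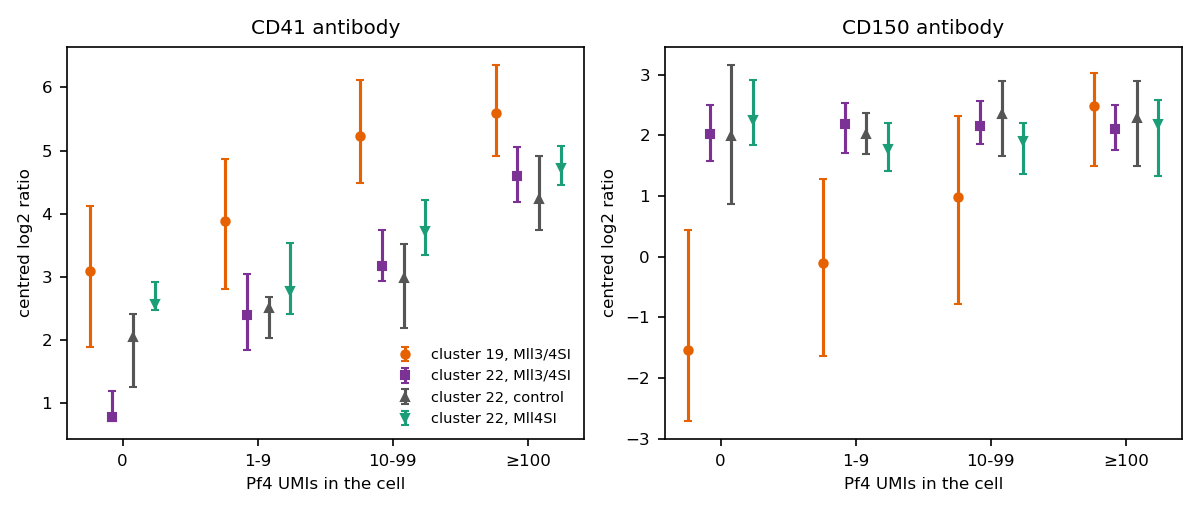
Median of the CD41 and CD150 antibodies (y axes, log2 ratio centred per cell, bars from the first to the third quartile) in cells grouped by Pf4 UMIs (x axis) for cluster 19 of Mll3/4SI and cluster 22 of Mll3/4SI, control and Mll4SI. CD41 lies higher in cluster 19 in each bin, and CD150 runs from -1.54 to 2.49 there while staying near 2 in cluster 22.

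A count with other genes gave the share of cells that held at least 3 of 8 megakaryocyte markers, among them Itga2b, Gp5, Itgb3 and Selp. Control had 2.91% [2.52 to 3.34]. Mll3SI had 1.81%, a ratio to control of 0.622 [0.498 to 0.775], and Mll4SI had 1.61%, a ratio of 0.554 [0.447 to 0.685]. In Mll3/4SI the share was 7.14% and the ratio 2.45 [2.08 to 2.91]. Of the 482 such Mll3/4SI cells, 323 were in cluster 19, 90 in cluster 7 and 33 in cluster 22, whereas of the 196 in control 86 were in cluster 22 and 83 were HSC/MPP-like. Without clusters 7 and 19 the Mll3/4SI ratio turned to 0.491 [0.368 to 0.650], a fall fixed by construction because most of the 482 cells lay there. The ratios differed between the hashtags: 0.407 in Hashtag1 and 1.11 [0.787 to 1.56] in Hashtag2 cells for Mll3SI, 0.372 and 0.955 [0.680 to 1.35] for Mll4SI, and 1.39 and 4.62 for Mll3/4SI. In Hashtag2 cells the Mll3SI and Mll4SI shares were thus within counting error of control. The shares also depend on depth, which was lower in Mll3SI and Mll4SI than in control. Thinned to 3000 UMIs, 21, 12, 15 and 61 cells of control, Mll3SI, Mll4SI and Mll3/4SI held at least 3 markers. These were 0.318%, 0.152%, 0.151% and 0.921% of cells, and the Mll3SI ratio of 0.478 [0.214 to 1.02] included 1.

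Of a list of 50 other genes of the lineage, 43 were tested in all kept cells. Mll3SI had 0 at least 2-fold higher and 0 lower, Mll4SI 1 and 1, and Mll3/4SI 1 and 0, where 0.26% and 0.325%, 1.11% and 1.28%, and 1.62% and 0.959% of all genes were. The highest log2 ratios in Mll3/4SI were 1.05 for Selp, the adhesion receptor P-selectin, 0.95 for Itgb3 and 0.90 for Itga2b, the integrin chains of platelets, and the lowest were -0.81 for F13a1, -0.69 for Gata1 and -0.63 for F5. Of 42 tested in HSC/MPP-like cells, 0, 2 and 0 were higher and 0, 1 and 0 lower in Mll3SI, Mll4SI and Mll3/4SI, against 0.287%, 1.55% and 0.846%, and 0.367%, 1.18% and 0.694% of all genes. There the ends in Mll3/4SI were Serpine2 at 0.62, Gp5 at 0.56 and Itgb3 at 0.33, and Mmrn1 at -0.89, Cd9 at -0.75 and Selp at -0.60. Of 45 tested in cluster 22, 0, 1 and 0 were higher and 0, 2 and 2 lower, against 2.29%, 3.36% and 4.29%, and 2.8%, 4.06% and 6.67%. The lowest in Mll3/4SI were Gp1ba, the Vwf-binding subunit, at -1.05, Nbeal2 at -0.95 and Jam3, which had 0 UMIs there and 2.47 CPM in control and so gets no fold, and the highest were Serpine2 and Gp5 at 0.63 each and P2rx1 at 0.48.

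Between cluster 19 and cluster 22 of Mll3/4SI, 27 of 45 of the list were lower and 4 higher, where 7.02% and 10.2% of all genes were. The list holds the markers for which cluster 22 was picked, so these counts are a description only. Thbs1 was at -4.25 and Rbpms2 at -3.62, and at the other end were Nbeal2 at 1.27 and Erg at 1.21. Jam3 had 66 UMIs in cluster 19, or 4.58 CPM, and 0 in cluster 22.

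Over 30 points of class and library with at least 50 cells, the genes whose pattern was most like the mean of the 10 were Timp3 (Pearson r 0.97), Rbpms2 (0.95), Gucy1a1 (0.94), Chsy3 (0.93) and Trpc6 (0.89), among 10259 genes. Timp3 was at 101, 78.1 and 85.6 CPM in cluster 22 of control, Mll3SI and Mll4SI and at 5.14 CPM in cluster 19, and Trpc6 at 446, 346 and 472 CPM against 205 CPM. Each of the 10 genes correlated with the mean of the other 9 by at least 0.67, with Cavin2 highest at 0.97, Plek at 0.82 and Clec1b lowest. The points share libraries, and each r is a description.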

How the data were processed

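UMI counts per gene and cell barcode, deposited by the authors for 4 libraries, were made with Cell Ranger 7.1.0 on mm10, per the submitters' processing notes. The files hold counts for 32285 genes and 15 antibodies, of which 13 bind surface proteins and 2 are hashtags. Cells with at least 1000 UMIs, at least 500 genes and at most 10% mitochondrial UMIs were kept. The highest Scrublet doublet scores (0.8% per 1000 cells) were removed: 409, 594, 1001 and 411 cells in control, Mll3SI, Mll4SI and Mll3/4SI. Clustering used 2000 variable genes, 30 principal components, 15 neighbours and Leiden resolution 1, which gave 30 clusters. A cluster was named from at least 3 markers at a log2 fold of at least 1 with a lead of 2 over the next class, a rule set after clusters were seen. Hashtag thresholds were 110 and 348 UMIs.

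UMIs were summed per class and library and given as CPM with exact Poisson intervals. Shares have Clopper-Pearson and ratios exact conditional intervals, which cover counting error only. Calls are 2-fold on log2(CPM + 1) for genes with a mean of at least 1 CPM. Groups of 1 library allow no test across samples. Ratios were tested on simulated counts. All 10 genes are named, with the 3 highest and 3 lowest of the other lineage genes against control and the 5 most alike genes, except that a value for 1 gene is not reported here. The genes and lists were chosen with earlier results of these data known. Coordinates are GRCm38. Clustering ran in scanpy 1.11.5 with leidenalg 0.10.2 and igraph 0.11.9, nearest cells were found in scikit-learn 1.9.0, and the rest in Python 3.11.15 with scipy 1.17.1, numpy 2.4.6, pandas 2.3.3 and matplotlib 3.10.9.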

Additional observations from a re-analysis of the deposited data

How the results depend on the processing

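Log2 ratios of single genes were taken to control and, within Mll3/4SI, of cluster 19 to cluster 22. The main values past 2-fold were those of 7 genes between these clusters, Plek in all kept cells of Mll3/4SI and Clec1b in cluster 22 of Mll4SI. Under the alternatives 1129 values stayed within counting error of the main value, 171 moved by more and none past 2-fold changed direction. Of all 1300, however, 101 changed sign, 44 of them by more than counting error, mostly from small main values: 20 of these 44 were in cells of 1 hashtag, 11 at Leiden resolution 0.5 and 3 without clusters 7 and 19. In HSC/MPP-like cells the Pf4 log2 ratio of Mll4SI (0.48) became -0.52 in Hashtag2 cells, -0.13 as a mean over cells and -0.35 without cells of 3 megakaryocyte markers. Of the counts of genes past 2-fold, 233 stayed and 27 moved. They take in all 10 genes, and the share of all genes was not computed under the alternatives. In all kept cells the count of higher genes in Mll3/4SI (1) became 3 with 0.1 CPM added, 0 with 10 CPM added, 2 as a mean over cells, 0 in Hashtag1 cells, 4 in Hashtag2 cells and 0 without clusters 7 and 19. The count of lower genes (0) became 1 in Mll4SI and in Mll3/4SI with 0.1 CPM added, and in Mll4SI 1 as a mean over cells and 3 in Hashtag1 cells. Mll3SI had 2 higher in Hashtag2 cells. In HSC/MPP-like cells the count of higher genes (0) became 1 in Mll4SI and Mll3/4SI with 0.1 CPM added, 1 in Mll4SI in Hashtag1 cells, and 1 in Mll3SI and Mll3/4SI in Hashtag2 cells. In Mll3/4SI it was 2 with classes taken over from the closest control cells and 7 with cluster 19 added, an alternative that enlarges the class by construction. In cluster 22 of Mll4SI the count of lower genes (0) became 1 as a mean over cells or without cells carrying both hashtags, and 2 in Hashtag1 cells, and that of higher genes (1) became 0 in Hashtag1 cells, 2 in Hashtag2 cells and 3 at Leiden resolution 0.5. Mll3SI had 1 higher and 1 lower in Hashtag1 cells. Between clusters 19 and 22, 1 gene was higher as a mean over cells. The ratio to control of the share of cells with at least 3 non-member megakaryocyte markers was 0.407, 0.372 and 1.39 in Hashtag1 cells and 1.11, 0.955 and 4.62 in Hashtag2 cells of Mll3SI, Mll4SI and Mll3/4SI. It was 0.491 in Mll3/4SI without clusters 7 and 19 and 1.81 there with at least 4 markers. It was 0.696 in Mll4SI with at least 2 markers and 0.478 [0.214 to 1.02] in Mll3SI after thinning. The cause of the differences between hashtags was not tested. Shares of cells with a UMI moved in 79 of 80 comparisons, in which cells were thinned or at least 2 UMIs of the gene were required. By construction thinned cells hold fewer UMIs, and the higher threshold can only lower a share. No paired analysis was possible because each group had 1 library. The alternatives without clusters 7 and 19, with cluster 19 added, and all those for clusters 19 and 22 were chosen after seeing the data. Not run, for too few cells, were cluster 22 of Mll3/4SI in Hashtag2 cells (9 cells), clusters 19 and 22 compared in Hashtag2 cells, cluster 22 without its marker-rich cells and ratios of the Cpa3+Fcer1a+ cells to the 7 of control.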

Other observations

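Erythroid-like cells, a lineage that shares progenitors with megakaryocytes, carried several of the 10 genes at a low level in each library. Rab27b was at 21.6, 20.6, 33.5 and 16.4 CPM in control, Mll3SI, Mll4SI and Mll3/4SI, Pf4 at 14.4, 12.5, 8.03 and 15.03 CPM, and Cavin2 at 8.59, 7.60, 7.33 and 5.01 CPM. Vwf was also found in dendritic-like cells, at 16.1, 11.6, 7.15 and 14.4 CPM in the same order, from 8, 3, 2 and 3 UMIs in 37, 24, 18 and 14 cells.

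The single Mll3SI cell of cluster 19 had 89 UMIs of Pf4, 4 of Vwf, 3 each of Gp9 and Treml1 and 0 of Clec1b. The single control cell had none of the 10 genes.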
